A study of Mus musculus with 35 samples.

Results

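The epiblast of the mouse embryo was compared between E5.5 and E6.5 in 6 bulk RNA-seq libraries, 3 of each stage, out of 27 libraries with bulk values and 35 samples in the series. Every autosomal gene with more than 2 TPM, a length-corrected share of the transcripts in a library, in at least 3 of the 6 libraries was included, which gave 12286 of 50225 autosomal genes. The embryos were wild-type, of the CD-1 strain and of either sex, received no treatment, and came from natural matings; the methods also name a Pdgfrα:H2B-GFP reporter line as a source. Each library was made from the pooled epiblasts of several embryos, freed by hand from extra-embryonic ectoderm and visceral endoderm. Total RNA was depleted of ribosomal cDNA, and all 6 libraries were fragmented in the same way. The number of reads behind each value cannot be read from TPM.

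The epiblast is the tissue from which the whole fetus derives. At E5.5 it is an epithelium around a lumen, in the formative phase of pluripotency. At E6.5 the primitive streak appears at its posterior side under the influence of Nodal, Wnt and BMP signals, and cells there express T-box factors, lose epithelial adhesion and leave the epithelium as mesoderm and endoderm. The comparison asks how much of this programme was present in whole epiblasts at the earlier stage, and how much appeared within the day between them.

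Few genes separated the stages. Calls required a log2 fold change beyond 1 in either direction on the log2(TPM + 1) scale, with an adjusted p under 0.05. At E6.5, 107 genes were called higher (0.871% of those tested) and 145 lower (1.18%). This balance turned without E5.5 replicate 1 (221 higher and 128 lower) and without E6.5 replicate 1 (190 and 143), and was 122 and 126 with median-of-ratios scaling. Among 10327 protein-coding genes, 76 were called higher (0.736%) and 51 lower (0.494%). Of these, 36 of the 76 had no E5.5 library above 2 TPM and 17 of the 51 no E6.5 library, so they passed the filter only through the stage where they were high and had to differ. With a filter on the mean of the 6 libraries instead, 59 and 48 protein-coding genes were called. Whatever the fold, 3.74% of all genes were higher and 7.81% lower at an adjusted p below 0.05. For comparison, 24.3% of genes were called in either direction between E4.5 and E5.5 and 15.4% between E6.5 and E7.5, against 2.05% here. E4.5 libraries were fragmented differently from those of E5.5, which cannot be told apart from the stage in that earlier step. Libraries of E5.5 and E6.5 did not overlap for 31.0% of all genes tested, and for 124 of the 127 protein-coding genes called (1.23% of those tested). The plot of fold changes against level shows how narrow the cloud of protein-coding genes was.

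**Figure D1:**
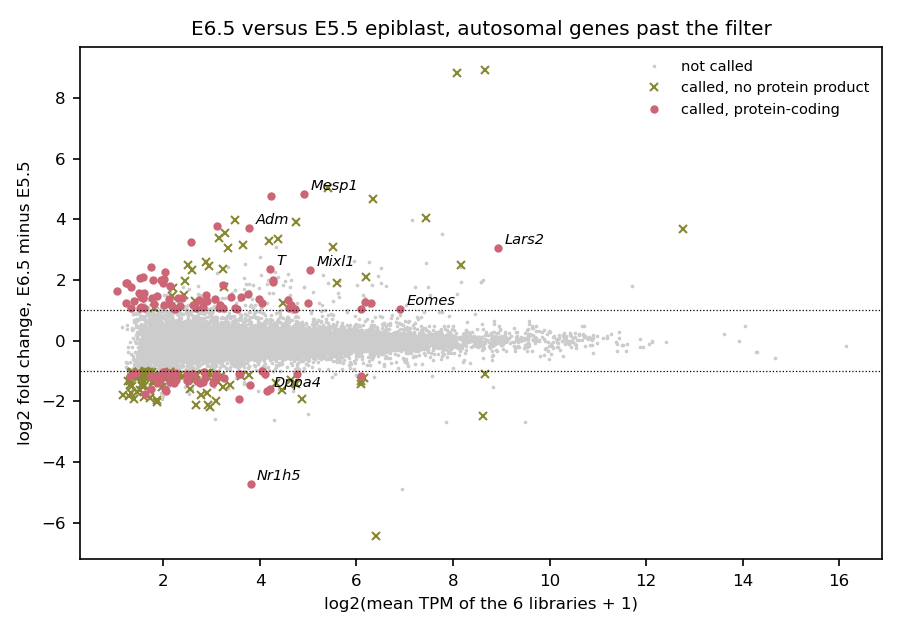
Each point is an autosomal gene: the x axis is the log2 of its mean TPM over the 6 libraries plus 1, and the y axis is the log2 fold change, E6.5 minus E5.5. Red points are the 127 protein-coding genes called and crosses the 125 called genes with no protein product; dotted lines mark the fold threshold, and Mesp1 and Nr1h5 stand farthest out among protein-coding genes.

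Epiblast identity was checked first. Pou5f1, the POU factor required for pluripotency, had 648, 693 and 722 TPM at E5.5 and 759, 689 and 715 TPM at E6.5. The stages overlapped, and the difference was 0.07 ± 0.07 (log2, SE; adjusted p = 0.579). All 10 epiblast markers were present, with a summed level of 4071 to 4275 TPM at E5.5 and of 3209 to 3743 TPM at E6.5. Markers of other tissues were also present. The 22 visceral endoderm markers, led by the apolipoproteins Apoe and Apoa1 and the carbonic anhydrase Car4, summed to 2361 to 2509 TPM at E5.5 and 3480 to 3607 TPM at E6.5, with none at 0 in all 6 libraries. The 17 extra-embryonic ectoderm markers summed to 169 to 180 and 195 to 214 TPM, and their defining factors Elf5 and Cdx2 were low, at means of 3.93 and 2.86 TPM at E5.5 and of 4.79 and 5.27 TPM at E6.5. The 11 parietal endoderm markers summed to 623 to 665 and 826 to 839 TPM, the 11 of decidua to 13.8 to 15.7 and 16.0 to 22.4 TPM, and the 12 of blood to 0 to 2.47 and 4.57 to 4.89 TPM. In bulk tissue, fewer cells of a type and less RNA per cell cannot be told apart.

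Short non-coding RNAs set 1 library of each stage apart. Of 1959 genes with no protein product, 31 were called higher (1.58%) and 94 lower (4.8%). Among the 31, E5.5 replicate 1 was the highest of its stage for 29, and E6.5 replicate 1 the lowest of its stage for 29. Small nucleolar RNAs (snoRNAs), which guide the modification of ribosomal RNA, took 1.02%, 0.518% and 0.499% of all TPM at E5.5 and 0.586%, 0.778% and 0.931% at E6.5. The stages overlapped in this share. Without E5.5 replicate 1 or E6.5 replicate 1, where the count over all genes rose, protein-coding genes called higher numbered 76 and 78. Results are therefore given mainly for protein-coding genes.

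Most tested genes of the primitive streak rose. Of 37 genes listed for the streak and nascent mesoderm, 28 passed the filter. Of these, 17 were called higher and none lower, against 0.736% called higher among all protein-coding genes. The median log2 fold change of the 28 was 1.07, against -0.06 for all genes tested. Dll1, Fgf3, Kdr, Mesp1 and Mesp2 passed the filter through E6.5 alone, and the median of the other 23 was 1.03. Another 7 of the 28 were above E5.5 at an adjusted p below 0.05 but short of the fold threshold, among them Pdgfra, the receptor of migrating mesoderm, at 0.87 ± 0.14 (adjusted p = 0.00199).

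T, the T-box factor Brachyury that marks the streak, had 4.71, 4.42 and 5.93 TPM at E5.5 and 31.0, 28.1 and 30.3 TPM at E6.5. It was already measured in every E5.5 library, and rose by 2.36 ± 0.20 on the log2 scale (SE, adjusted p = 1.51e-05). Mesp1 (chr7:79792241-79793788, mm10), a basic helix-loop-helix factor of the earliest mesoderm, had 0.956, 1.13 and 0.985 TPM at E5.5 and 73.3, 49.6 and 48.9 TPM at E6.5. On the log2(TPM + 1) scale its difference was the largest of any protein-coding gene called higher, at 4.82 ± 0.12 (adjusted p = 1.71e-10), or 55.8-fold in mean TPM. This rank depended on the scale. With a pseudocount of 0.1 the placental genes Prl3d1 (6.74) and Prl3d2 (6.06) exceeded Mesp1 (5.65). Prl3d1 (5.41) also exceeded Mesp1 (5.19) with TPM renormalised without histone genes. The homeobox factor Mixl1 had 9.55, 10.5 and 9.76 TPM at E5.5 and 61.1, 54.1 and 46.0 TPM at E6.5, and rose by 2.32 ± 0.21 (adjusted p = 2.3e-05; 0.0528 with a pseudocount of 0.1). Eomes, the T-box factor upstream of mesoderm and definitive endoderm, was abundant at E5.5, with 77.6, 74.4 and 80.8 TPM, and reached 173, 159 and 146 TPM. Its rise of 1.03 ± 0.11 (adjusted p = 0.000114) lay close to the threshold, and was 0.97 without E6.5 replicate 1 and 1.0, just short of it, without E5.5 replicate 2. Wnt3, the ligand needed to start the streak, went from 7.34, 6.90 and 5.68 TPM to 15.7, 14.2 and 13.7 TPM (1.03 ± 0.11, adjusted p = 0.000127), and was not called without E5.5 replicate 3 (0.94) or E6.5 replicate 1 (0.98). These libraries also held markers of visceral endoderm and extra-embryonic ectoderm, and the part of those tissues in the levels above was not tested.

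Sp5, a zinc finger target of Wnt signalling, had 6.41, 7.11 and 6.46 TPM at E5.5 and 37.2, 30.1 and 23 TPM at E6.5. It rose by 2.00 ± 0.13 (adjusted p = 2.35e-06) and was the only called member of the 16 tested Wnt targets and feedback genes. Among all protein-coding genes, 0.736% were called higher. Axin2, the usual feedback reporter of the pathway, had 23.8, 24.7 and 23 TPM at E5.5 and 32.5, 33.7 and 30.9 TPM at E6.5. The stages did not overlap, and the difference of 0.42 ± 0.08 (adjusted p = 0.00567) was below the fold threshold. Whatever the fold, 6 of the 16 were higher at an adjusted p below 0.05 and none lower, where 3.74% of all genes were higher and 7.81% lower. The median of the 16 was 0.17, against -0.06 for all genes tested. Lef1 and Myc, also in that list, were at means of 48.1 and 78.3 TPM at E5.5 and of 48.2 and 76.7 TPM at E6.5.

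The remaining called streak genes were of several kinds. Hand1, Evx1 and Lhx1 encode transcription factors; Fgf3 encodes a ligand; Dll1 and Dll3 are Notch ligands; Lefty2 and Frzb encode secreted antagonists of Nodal and Wnt; Kdr encodes a VEGF receptor; and Mesp2 is the neighbour and paralogue of Mesp1. Mesp2, Fgf3 and Frzb were named after their values were seen. Evx1 was not called without E5.5 replicate 2 (0.99) or E6.5 replicate 1 (0.90). Fgf8, a ligand that mesoderm cells need to leave the streak, had 105, 116 and 104 TPM at E5.5 and 182, 140 and 117 TPM at E6.5, which was not called (0.41 ± 0.21, adjusted p = 0.225). Among the 17 called genes, E6.5 replicate 1 was the highest library of its stage for 15 and replicate 3 for none, whereas replicate 1 was the highest for 32.0% of all protein-coding genes tested. The plot of these genes by library shows the same order.

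**Figure D2:**
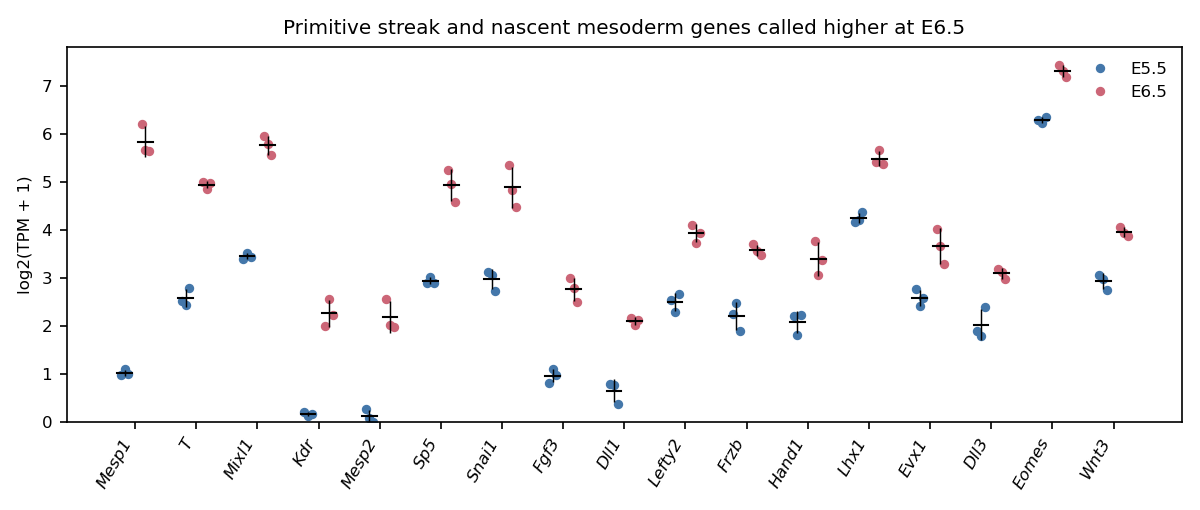
The 17 streak and nascent mesoderm genes called higher, with log2(TPM + 1) on the y axis and 1 point per library (replicates 1 to 3 from left to right; bars, mean and SD, n = 3). E6.5 libraries lie above all E5.5 libraries for every gene shown, and the leftmost E6.5 point is the highest for 15 of 17.

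The promoters of the T-box gene T, the Wnt target Sp5 and Mesp1 are shown because Wnt signalling acts through TCF/LEF factors; they were chosen with their matches known. Sequences are from RefSeq, build GRCm38.p6, from 250 bases before to 50 after the start of the gene. Capitals mark CTTTGAA or CTTTGAT on either strand, a common form of the TCF/LEF motif. The positions are chr17:8434173-8434472 (+) for T, chr2:70474673-70474972 (+) for Sp5 and chr7:79793541-79793840 (-) for Mesp1.
T: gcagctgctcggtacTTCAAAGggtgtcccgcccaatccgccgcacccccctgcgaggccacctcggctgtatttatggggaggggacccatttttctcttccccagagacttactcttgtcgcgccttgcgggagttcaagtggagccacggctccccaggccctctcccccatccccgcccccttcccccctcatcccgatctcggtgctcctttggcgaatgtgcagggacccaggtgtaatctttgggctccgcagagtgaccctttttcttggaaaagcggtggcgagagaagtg
Sp5: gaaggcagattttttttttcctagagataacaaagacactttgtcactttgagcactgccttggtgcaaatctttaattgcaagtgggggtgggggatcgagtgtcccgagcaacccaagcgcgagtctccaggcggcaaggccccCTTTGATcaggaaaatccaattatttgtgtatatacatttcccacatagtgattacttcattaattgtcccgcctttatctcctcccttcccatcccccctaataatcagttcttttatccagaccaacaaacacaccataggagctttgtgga
Mesp1: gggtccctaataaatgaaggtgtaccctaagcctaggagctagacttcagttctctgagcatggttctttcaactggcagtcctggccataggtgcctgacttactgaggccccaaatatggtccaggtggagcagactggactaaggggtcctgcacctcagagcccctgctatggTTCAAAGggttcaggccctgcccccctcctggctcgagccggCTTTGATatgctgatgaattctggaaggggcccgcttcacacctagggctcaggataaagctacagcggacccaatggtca
T and Sp5 held 1 match each and Mesp1 held 2. Promoters were found for 57 of the 76 protein-coding genes called higher, and 9 of these genes (15.8%) had a match (T, Sp5, Mesp1, Fgf3, Foxa2, Rbp4, Lect2, Col13a1 and Tgm1), as did 9.88% of all 27025 genes with a promoter and 8.65% of all promoters. A T-box motif, AGGTGTGA on either strand, was found for 2 of the 57 genes (3.51%), Mesp1 and the extra-embryonic ectoderm marker Plet1, against 1.48% of all genes and 1.28% of all promoters. A match is a description of the letters, and factor binding was not measured.

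Genes of the organizer and definitive endoderm followed, with smaller changes. Of 18 tested, 2 were called higher and none lower, against 0.736% higher among all protein-coding genes. The median was 0.62 without Chrd, which passed the filter through E6.5 alone, against -0.06 for all genes. Gsc, the homeobox gene of the organizer, had 13.4, 10.2 and 13.5 TPM at E5.5 and 39.2, 30.6 and 29.9 TPM at E6.5 (1.35 ± 0.25, adjusted p = 0.00511), and was not called with a pseudocount of 0.1 (adjusted p = 0.251). Foxa2, the forkhead factor of anterior streak and endoderm, went from 13.8, 14.7 and 14.7 TPM to 35.2, 33.0 and 28.0 TPM (1.09 ± 0.09, adjusted p = 1.75e-05). Both genes are also expressed by visceral endoderm, whose markers moved in the same direction, and the part of that tissue in their rise was not tested. Cer1, a secreted antagonist of Nodal that marks anterior visceral endoderm, had 27.8, 27.0 and 27.2 TPM at E5.5 and 39.1, 44.1 and 45.9 TPM at E6.5 (0.63 ± 0.09, adjusted p = 0.00105), below the fold threshold.

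Signalling components differed in how they moved. Of 20 genes of the Nodal pathway, Lefty2, a feedback inhibitor, was the only one called, with 4.78, 3.86 and 5.35 TPM at E5.5 and 16.2, 12.3 and 14.4 TPM at E6.5 (1.43 ± 0.14, adjusted p = 7.15e-05). Nodal itself had 15.8, 16.9 and 17.5 TPM and then 19.5, 18.2 and 19.2 TPM, a difference of 0.17 ± 0.15 (adjusted p = 0.486). The median of that list was -0.06, the same as that of all genes, and 0.736% of all protein-coding genes were called higher. Of 19 BMP ligands and targets, 4 were called higher and none lower, where 0.736% of all protein-coding genes were called higher. Bmp7, Bmp8b and Gata2 passed the filter through E6.5 alone, and the median of the other members was 0.17. Bmp7, a ligand, had 0.403, 0.583 and 0.256 TPM at E5.5 and 3.16, 3.29 and 3.09 TPM at E6.5 (1.57 ± 0.18, adjusted p = 0.000213). Msx1, a homeobox target of BMP, had 6.88, 7.80 and 8.45 TPM and then 25.7, 20.5 and 18.8 TPM (1.37 ± 0.18, adjusted p = 0.000561). Gata2 and Hand1 were the other two, and both are also trophoblast factors. Bmp4 had means of 4.53 and 3.98 TPM (adjusted p = 0.616).

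Among 13 tested genes of the Notch pathway, the ligands Dll1 and Dll3 were called higher, Dll1 having passed the filter through E6.5 alone, with mean levels of 0.576 and 3.14 TPM at E5.5 and of 3.30 and 7.55 TPM at E6.5. No Notch receptor was called, and 0.736% of all protein-coding genes were called higher. The FGF list did not hold Fgf3, which was called higher in the streak list. Among its 21 tested genes, Fgf4 was called lower and none higher, where 0.494% of all protein-coding genes were called lower. This ligand, made by the early epiblast, had 12.5, 12.4 and 12.1 TPM at E5.5 and 4.68, 5.51 and 3.95 TPM at E6.5 (-1.23 ± 0.14, adjusted p = 0.000157). Of 14 immediate early genes, the AP-1 components Fosl1, Junb and Fos were called higher, from means of 0.505, 4.49 and 3.45 TPM to 2.7, 11.5 and 8.61 TPM, where 0.736% of all protein-coding genes were called higher. Fosl1 passed the filter through E6.5 alone, and the median of the other members was 0.11. Of 32 imprinted genes, only Dlk1 was called (1.28 ± 0.13, adjusted p = 6.29e-05), and 6 others lay higher and 6 lower at an adjusted p below 0.05 without reaching the fold threshold. Of all genes tested, 0.871% were called higher. At an adjusted p below 0.05 whatever the fold, 3.74% of all genes were higher and 7.81% lower.

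Some mesenchymal genes rose, and no adhesion gene was called lower. Of 24 adhesion and epithelial-mesenchymal transition genes tested, 5 were called higher and none lower, where 0.736% of all protein-coding genes were called higher; Cdh11, Mmp9 and Zeb2 passed the filter through E6.5 alone, and the median of the others was 0.09. Snai1, the repressor of Cdh1, had 7.72, 7.27 and 5.65 TPM at E5.5 and 39.7, 27.4 and 21.3 TPM at E6.5 (1.92 ± 0.18, adjusted p = 3.18e-05). Fn1, the fibronectin of the migration substrate, went from 40.6, 49.5 and 47.3 TPM to 115, 121 and 91.0 TPM (1.23 ± 0.11, adjusted p = 2.42e-05). Cdh11, a mesenchymal cadherin, rose by 2.27 ± 0.10 from a mean of 0.402 TPM (adjusted p = 2.98e-08), and Zeb2, another repressor of epithelial genes, by 1.48 ± 0.28 from a mean of 0.860 TPM (adjusted p = 0.00588). Mmp9, a secreted protease, had 0.218, 0.475 and 0.437 TPM and then 4.53, 4.67 and 4.41 TPM; it is also a product of trophoblast giant cells.

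Cdh1, the E-cadherin of the epithelium, had 265, 273 and 267 TPM at E5.5 and 215, 228 and 199 TPM at E6.5. The stages did not overlap, but the difference of -0.33 ± 0.07 (adjusted p = 0.0139) was far from the fold threshold, and its adjusted p was 0.0969 with the 6 libraries alone, 0.0692 with median-of-ratios scaling and 0.0585 without E5.5 replicate 2. Cdh2, the N-cadherin that mesoderm takes up, had 9.99, 12.8 and 12.2 TPM and then 17.4, 19.7 and 16.2 TPM (0.57 ± 0.14, adjusted p = 0.0212), with an adjusted p of 0.188 with a pseudocount of 0.1, 0.057 with the 6 libraries alone, and 0.0701 and 0.063 without E5.5 replicate 1 and E6.5 replicate 2. None of 22 apical polarity genes passed even the adjusted p threshold, and their log2 fold changes ranged from -0.26 to 0.24. Prkci, the atypical protein kinase C of the apical domain, had 42.3, 41.0 and 43.9 TPM at E5.5 and 40.3, 46.2 and 40.1 TPM at E6.5 (-0.01 ± 0.09, adjusted p = 0.961). Of 15 basement membrane genes and their receptors none was called, with Itga6 and Itga3 lower and Col4a1 and Sparc higher at an adjusted p below 0.05.

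**Figure D3:**
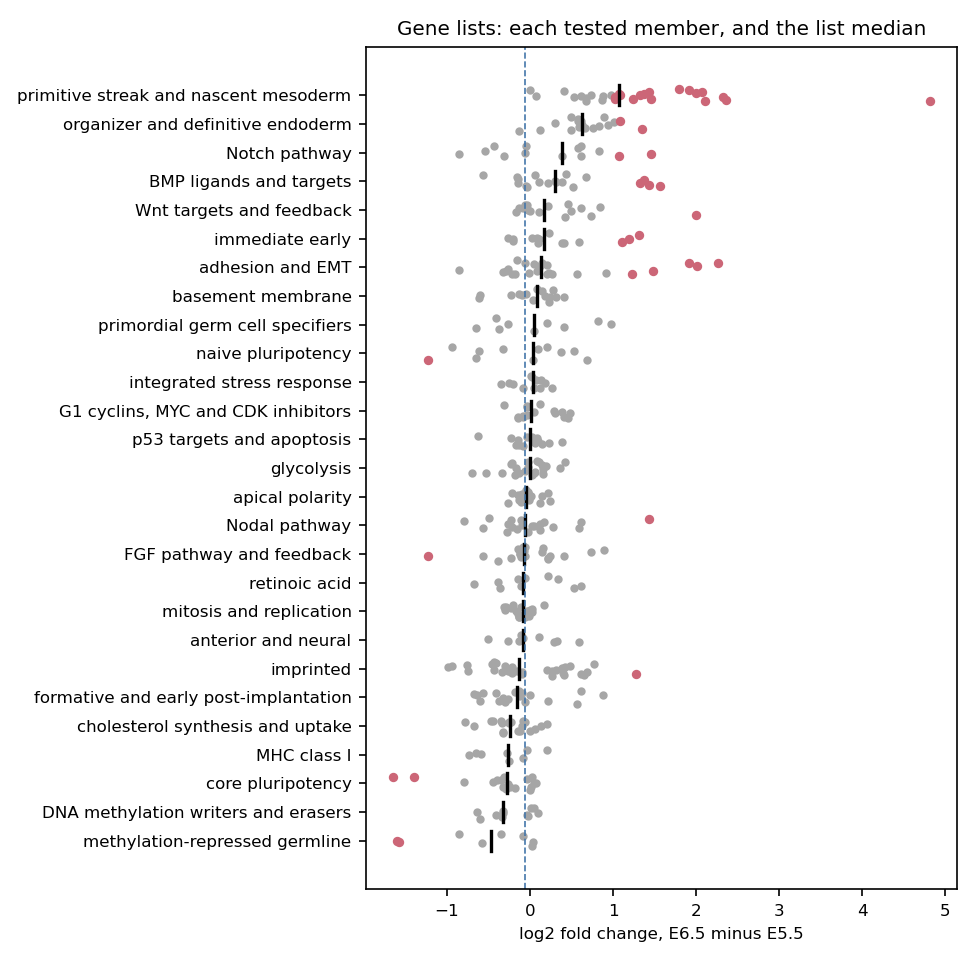
Log2 fold changes, E6.5 minus E5.5, of the tested members of 27 gene lists (x axis; 1 row per list, sorted by median). Grey points were not called, red points were called, black bars are list medians and the dashed line is the median of all genes tested, -0.06; the streak list has the highest median, 1.07.

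Dppa4 and Dppa2 fell among pluripotency genes, and no difference in Pou5f1, Sox2 or Nanog passed the test. Of 18 core pluripotency genes, 2 were called lower and none higher, where 0.494% of all protein-coding genes were called lower. The median of the 18 was -0.28. Dppa4 (chr16:48283733-48294237), a chromatin protein of pluripotent cells, had 26.2, 24.7 and 26.4 TPM at E5.5 and 7.15, 9.46 and 6.25 TPM at E6.5 (-1.65 ± 0.14, adjusted p = 1.5e-05). Its partner and neighbour Dppa2 (chr16:48303908-48319723) had 5.25, 6.24 and 5.62 TPM and then 1.36, 1.27 and 2.05 TPM (-1.40 ± 0.12, adjusted p = 1.5e-05). The stages did not overlap for either gene. Nanog had 25.6, 25.2 and 20.3 TPM and then 23.1, 21.2 and 25.2 TPM (-0.03 ± 0.16, adjusted p = 0.933), and Sox2 had 37.5, 34.5 and 40.4 TPM and then 32.6, 34.9 and 31.2 TPM (-0.18 ± 0.11, adjusted p = 0.297). Neither difference exceeded the spread between replicates by the test.

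None of 20 formative and early post-implantation genes was called. Fgf5, a marker of the epiblast after implantation, had 94.2, 103 and 106 TPM and then 87.2, 108 and 95.8 TPM (-0.06 ± 0.13, adjusted p = 0.798), and Otx2, a homeobox factor, had 141, 132 and 137 TPM and then 113, 132 and 132 TPM (-0.13 ± 0.18, adjusted p = 0.694). Pou3f1, a POU factor that later marks anterior epiblast, had 69.6, 73.3 and 81.3 TPM and then 63.4, 44.3 and 34.6 TPM (-0.68 ± 0.19, adjusted p = 0.0373), which did not hold with a pseudocount of 0.1 (adjusted p = 0.125), with the 6 libraries alone (0.123) or without any 1 library but E6.5 replicate 1 (up to 0.127). Of 11 tested naive genes Fgf4 was the only one called, where 0.494% of all protein-coding genes were called lower. Klf2 did not pass the filter, at 0.196 to 0.677 TPM at E5.5 and 0 to 0.613 TPM at E6.5.

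None of the 11 tested writers and erasers of DNA methylation was called. Dnmt3b and Dnmt3a, which set up methylation at implantation, were lower at E6.5 at an adjusted p below 0.05. Dnmt3b had 2104, 2242 and 2200 TPM at E5.5 and 1800, 1676 and 1452 TPM at E6.5 (-0.41 ± 0.09, adjusted p = 0.00882, but 0.0849 with the 6 libraries fitted alone). Dnmt3a had 242, 252 and 209 TPM and then 159, 160 and 132 TPM (-0.64 ± 0.10, adjusted p = 0.00227), and the cofactor Dnmt3l had 16.1, 16.2 and 18.2 TPM and then 10.0, 8.80 and 13.9 TPM (-0.60 ± 0.16, adjusted p = 0.0309). The latter passed the test in few alternatives: its adjusted p was 0.0932 with a pseudocount of 0.1, 0.0957 with the 6 libraries alone, and above 0.05 without any 1 library but E6.5 replicate 3, up to 0.104. Dnmt1, which maintains methylation, was at means of 148 and 147 TPM. Dnmt3c, a neighbouring copy of Dnmt3b named after its values were seen, was called higher, with 53.3, 37.8 and 40.1 TPM at E5.5 and 97.2, 93.8 and 83.2 TPM at E6.5 (1.06 ± 0.17, adjusted p = 0.00179). How reads were divided between both copies is uncertain.

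Of 20 genes listed as silenced by methylation outside the germline, 8 passed the filter. Mael and Cyct were called lower and none higher, where 0.494% of all protein-coding genes were called lower. Ddx4 and Rpl10l were lower at an adjusted p below 0.05 only. Mael, which protects the germline from transposons, had 3.44, 4.62 and 3.88 TPM at E5.5 and 1.30, 0.912 and 0 TPM at E6.5 (-1.60 ± 0.25, adjusted p = 0.00157). It passed the filter through E5.5 alone, and the median of the other 7 was -0.35. Cyct, the testis cytochrome c, had 25.2, 26.7 and 28.2 TPM and then 7.61, 11.2 and 6.57 TPM (-1.58 ± 0.29, adjusted p = 0.00515). Another 5 called genes with roles in germ cells were picked after their values were seen and carry no test as a group. These were the meiotic genes Syce1 and Stag3, the male fertility genes Fkbp6 and Spaca6, and the testis tubulin Tuba3a. Their log2 fold changes lay between -1.46 and -1.08, and Fkbp6 passed the filter through E5.5 alone. Together the 7 genes summed to 77.8, 73.8 and 79.4 TPM at E5.5 and 25, 27.8 and 22.1 TPM at E6.5, and to 9.4 to 15 TPM at E7.5.

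Promoters of Mael, chr1:166238695-166238994 (-), and Stag3, chr5:138280259-138280558 (+), are shown because a shared palindromic E-box, CACGTG, lies in them; capitals mark it. Motifs of this kind are bound by MAX dimers, which in pluripotent cells are known to recruit repressors to germline genes.
Mael: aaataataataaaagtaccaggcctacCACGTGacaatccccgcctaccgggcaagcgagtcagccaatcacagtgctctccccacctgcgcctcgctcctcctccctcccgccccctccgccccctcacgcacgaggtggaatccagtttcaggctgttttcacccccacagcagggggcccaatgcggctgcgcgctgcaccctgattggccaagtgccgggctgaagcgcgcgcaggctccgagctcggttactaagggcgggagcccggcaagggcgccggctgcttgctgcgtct
Stag3: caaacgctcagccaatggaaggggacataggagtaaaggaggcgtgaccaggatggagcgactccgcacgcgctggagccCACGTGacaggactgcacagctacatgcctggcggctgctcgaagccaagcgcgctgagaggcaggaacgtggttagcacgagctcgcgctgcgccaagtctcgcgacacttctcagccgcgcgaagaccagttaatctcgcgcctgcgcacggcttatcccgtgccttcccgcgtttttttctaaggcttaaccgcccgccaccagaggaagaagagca
The E-box was found in 7 of the 36 genes called lower for which a promoter was given (19.4%), in none of the 57 called higher, and in 8.09% of all genes with a promoter (7.15% of all promoters). Fkbp6 also had it, as did Fam178b, 4930447C04Rik, Ppfia4 and Zbtb49. This motif was chosen with the called genes known, so these shares are a description, and factor binding was not measured.

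Lower genes included a cluster of zinc finger genes, noticed after the values were seen. On chromosome 4, from 145510759 to 147848366 (mm10), 19 genes named Zfp or Rex2 passed the filter. All 19 were below 0 in log2 fold change, with a median of -0.65; 5 were called lower (Zfp600, Zfp978, Rex2, Zfp981 and Zfp980) and none higher, where 0.494% of all protein-coding genes were called lower. Zfp600 had 3.71, 6.67 and 4.98 TPM at E5.5 and 1.71, 0.809 and 0.662 TPM at E6.5 (-1.58 ± 0.19, adjusted p = 0.000254), after a mean of 49.9 TPM at E4.5. Zfp978 had 7.65, 8.68 and 10.7 TPM and then 2.26, 2.36 and 4.37 TPM, after a mean of 60.3 TPM at E4.5. These genes are close copies of each other, so the value of any single member is uncertain.

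The largest decrease was in Nr1h5 (chr3:102939658-102964133), a nuclear receptor related to the bile acid receptor. It had 20.7, 34.4 and 22.8 TPM at E5.5 and was listed at 0 in all 3 libraries of E6.5. Its mean was 0 TPM at E4.5 and 0.282 TPM at E7.5. A value of exactly 0 in TPM can be a failed estimate, so no fold change is given. The other 7 largest decreases by rule were short non-coding RNAs, of which the snoRNA Snord17 was the most abundant, with 740, 634 and 622 TPM at E5.5 and 129, 101 and 130 TPM at E6.5. The rest were Mir341, Mir302d, Snord91a, Snora23, Snora19 and Snord88c.

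Placental hormone genes were among the largest increases. Prl3d1, which encodes placental lactogen of trophoblast giant cells, had 0, 0.676 and 0.356 TPM at E5.5 and 33.0, 33.8 and 38.7 TPM at E6.5 (4.78 ± 0.25, adjusted p = 1.9e-07). Its copies Prl3d2 and Prl3d3 rose from 0 to 0.266 TPM to between 8.61 and 16.5 TPM, and how reads were shared among the 3 is uncertain. Adm, a peptide hormone made by giant cells, had 0.834, 0.782 and 1.23 TPM and then 24.3, 22.4 and 26.8 TPM (3.72 ± 0.26, adjusted p = 3.16e-06). Of 18 trophoblast giant cell and ectoplacental cone genes, listed after these values were seen, 10 passed the filter and all 10 were called higher, but 9 passed it through E6.5 alone. Their summed level was 5.57, 5.19 and 5.68 TPM at E5.5, 108, 110 and 118 TPM at E6.5 and 81.7 to 91.7 TPM at E7.5. Hand1, whose mean was 82.0 TPM at E7.5, made up nearly all of that last sum. Plet1 was the only one of 12 tested extra-embryonic ectoderm markers called, at a mean of 14.1 ± 2.31 TPM (SD, n = 3) against 6.12 ± 1.08 TPM. Among all protein-coding genes, 0.736% were called higher. None of the 11 parietal endoderm markers was called, but 3 were higher and none lower at an adjusted p below 0.05. Fst, another of the 11, had 33.5, 34.6 and 39.3 TPM at E5.5 and 76.5, 66.8 and 76.5 TPM at E6.5. Its rise of 1.01 passed the fold threshold without overlap between the stages, but not the test (adjusted p = 0.113). Hba-a1, the only tested blood marker, was called higher with libraries that overlapped.

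Visceral endoderm markers were higher in sum at E6.5 and far more abundant than those of trophoblast. Of 20 tested, 1 was called higher, Rbp4, the retinol carrier, with 41.2, 42.2 and 39.6 TPM at E5.5 and 97.6, 102 and 104 TPM at E6.5 (1.29 ± 0.06, adjusted p = 1.23e-07). Another 7 were higher at an adjusted p below 0.05 only. Among all protein-coding genes, 0.736% were called higher. The log2 fold changes of the 20 ranged from -0.01 to 1.29, with a median of 0.64. Some markers without overlap between the stages did not pass, such as Ttr, Apoa1 and Hnf4a (adjusted p = 0.125, 0.107 and 0.173). The test used the spread within all 5 in vivo stages. The ratio of mean sums between the stages was 1.45. Called genes with liver-like or absorptive roles, picked after their values were seen, included the glucose transporter Slc2a2 and the plasminogen gene Plg, at 1.42 ± 0.10 and 1.41 ± 0.16 on the log2 scale (adjusted p = 4.71e-06 and 0.00015); Plg passed the filter through E6.5 alone. The part of these tissues in the levels and changes of streak and other epiblast genes was not tested. Of the streak list, Cdx2 is also an extra-embryonic ectoderm marker, Hand1 is also in the trophoblast list and Pou5f1 is also an epiblast marker.

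**Figure D4:**
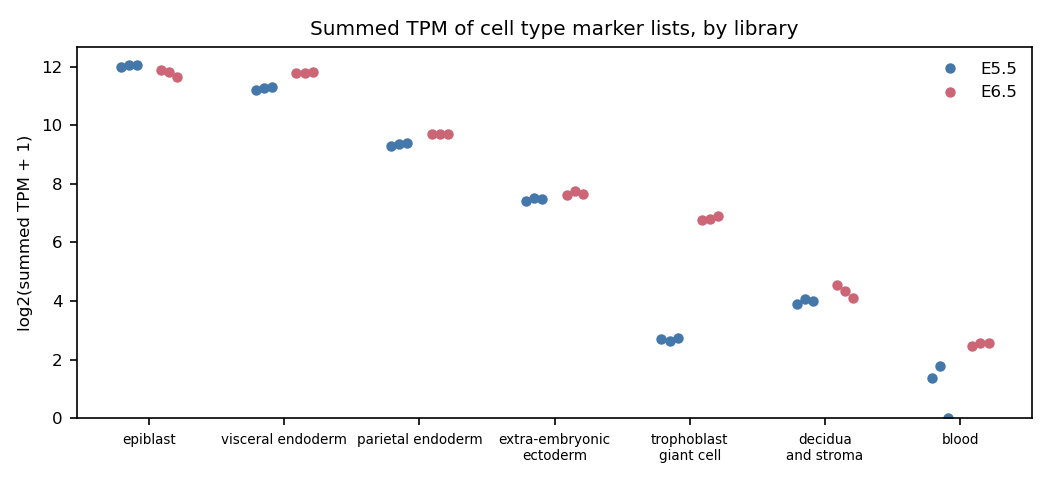
Summed TPM of cell type marker lists on a log2 scale (y axis), 1 point per library (replicates 1 to 3 from left to right). Trophoblast giant cell genes, listed after their values were seen, sum to 5.19 to 5.68 TPM at E5.5 and 108 to 118 TPM at E6.5, whereas epiblast markers sum to 3209 TPM or more in all 6 libraries. At E6.5 the 22 visceral endoderm markers sum to 3480 to 3607 TPM, within the range of the 10 epiblast markers (3209 to 3743 TPM).

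Of 12 genes of vessels and blood progenitors, listed after the values were seen, 7 passed the filter and 4 were called higher, but 5 of the 7 passed it through E6.5 alone, and the other 2 had a median of 0.35. Kdr had 0.142, 0.0775 and 0.119 TPM at E5.5 and 2.96, 4.89 and 3.70 TPM at E6.5 (2.11 ± 0.15, adjusted p = 3.1e-06). Cdh5, the endothelial cadherin, and Aplnr, the apelin receptor of nascent mesoderm, were named after their values were seen; they rose from means of 0.587 and 0.539 TPM to 5.5 and 5.2 TPM. Gata2 was the fourth, and all 4 passed the filter through E6.5 alone.

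The neighbouring stages show which changes lasted. These steps share libraries with the comparison above, so levels are given side by side. Mesp1 went from 1.03 TPM at E5.5 to 57.3 at E6.5 and 14.1 ± 0.685 at E7.5 (means of 3 libraries, with the SD at E7.5), Mixl1 from 9.94 to 53.7 and 5.33 ± 0.167, Eomes from 77.6 to 160 and 4.1 ± 0.863, and Gsc from 12.4 to 33.2 and 0.992 ± 0.0835. These 4 were highest at E6.5 of the 3 stages. T went from 5.02 to 29.8 and 96.5 ± 2.93 TPM, Fn1 from 45.8 to 109 and 409 ± 6.03, Dll1 from 0.576 to 3.3 and 55.5 ± 4.11, and Zeb2 from 0.86 to 4.38 and 57.5 ± 7.05. These 4 were higher still at E7.5. Of the 76 protein-coding genes called higher at E6.5, 24 were called higher and 27 lower in the next step, where 11.2% of all protein-coding genes tested were called higher and 1.82% lower. Of the 51 called lower, 32 could be tested in the next step, where 8 were called lower again and 8 higher. Both sets were chosen by their E6.5 values, which favours a return in the next step, so these counts are a description. Dppa4 went from 25.8 to 7.62 and 0.162 TPM, and Cyct from 26.7 to 8.46 and 0.893. Prl3d1 went from 0.344 to 35.2 and 0.353 ± 0.612 TPM.

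**Figure D5:**
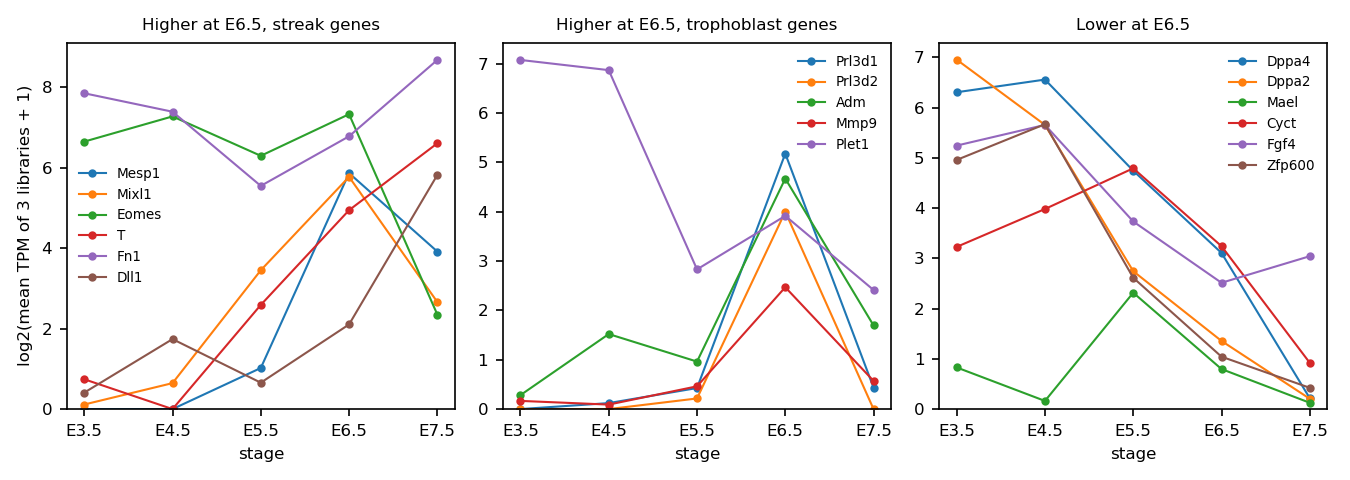
Mean levels of 17 genes over 5 stages, as the log2 of the mean TPM of 3 libraries plus 1 (y axis). Mesp1, Mixl1 and Eomes peak at E6.5 while T, Fn1 and Dll1 go on rising; Prl3d1, Prl3d2, Adm and Mmp9 are highest at E6.5; Dppa4, Dppa2, Mael, Cyct and Zfp600 are lower at E7.5 than at E6.5.

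The remaining lists held no called gene: anterior and neural genes (9 tested), primordial germ cell specifiers (9), mitosis and replication (20), glycolysis (21), cholesterol synthesis and uptake (20), the integrated stress response (12), p53 targets (14), retinoic acid (10), MHC class I (8), and G1 cyclins and CDK inhibitors (16). None of 19 Hox genes passed the filter. The lists were counted with the same limma fit and at the same thresholds, and 5 of the cholesterol genes, Fdps among them at -0.78 ± 0.09 (adjusted p = 0.000266), were lower at an adjusted p below 0.05 without reaching the fold threshold.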

How the data were processed

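Reads were processed by the authors with cutadapt 2.4 for trimming, STAR for alignment to mm10 and StringTie for GENCODE genes. The deposited values are TPM with an equal sum in each library, so depth is unknown and limits which low genes can be compared. Here, 12 identifiers on several lines were summed, and biotypes came from a later GENCODE release. The authors' methods use DESeq2 on raw counts; as the deposited values are TPM, limma 3.58.1 in R 4.3.3 was run on log2(TPM + 1), with all 15 in vivo libraries in 1 fit, and Benjamini-Hochberg adjustment over all 12286 genes. Fold changes on this scale understate those of low genes. When a log2 change of 2 was simulated in 200 of these genes, 188 were called, with 2 false calls. That change is above the threshold of 1, and noise was drawn independently for each gene and library. The simulation therefore does not cover changes near the threshold or shifts shared by many genes of 1 library.

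Replicates were separate pools of embryos, and no batch is given. The p-values rest on the spread between pools within all 5 in vivo stages, not on the E5.5 and E6.5 pools alone. With those 6 libraries alone the adjusted p was 0.000211 for Mesp1 and 0.0105 for Fn1. Named genes were a panel of 30, the 8 largest called changes in each direction with a gene name and without overlap between stages, and up to 4 called members per list and direction. Members and lists were chosen with earlier results of these data known. Other genes are said to be chosen after their values were seen. Alternatives were another pseudocount (0.1), filters, scalings, fits and left-out libraries, and, added after seeing the data, X and Y genes. Python 3.11.15 was used for other steps. Reads shared by paralogues, and the other assays of the series, were not analysed here.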

Additional observations from a re-analysis of the deposited data

How the results depend on the processing

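Depth is not known from TPM, so low levels such as those of Kdr or Mael carry unstated counting error. Of the 44 genes named by rule, 35 kept the same call in up to 17 alternatives and none reversed. For genes below the fold threshold this says only that they stayed below it: the adjusted p reached 0.0969 for Cdh1, 0.188 for Cdh2, 0.127 for Pou3f1, 0.0849 for Dnmt3b and 0.104 for Dnmt3l, and was not recomputed for Dnmt3a. Gsc and Mixl1 were no longer called with a pseudocount of 0.1 (adjusted p = 0.251 and 0.0528), and Eomes, Evx1 and Wnt3 fell just below the fold threshold without E6.5 replicate 1 (0.97, 0.90 and 0.98) and without 1 E5.5 library each; the other 4 were short non-coding RNAs.

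Genes called lower numbered 145, against 53 with protein-coding genes only and 82 (with 114 higher) with TPM renormalised without histone genes, an alternative that also holds protein-coding genes only. Protein-coding genes called lower numbered 51, against 79 with a pseudocount of 0.1 and 82 with TPM renormalised without histone genes. Leaving out each library gave 83 to 221 genes called higher, with the high values without E5.5 replicate 1 (221) and E6.5 replicate 1 (190), and 108 to 200 called lower. Protein-coding genes gave 69 to 84 higher and 40 to 70 lower, the streak list 14 to 18 and the panel 11 to 14 called. The cause of these shifts was not tested.

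Replicate numbers did not pair the samples: deviations of same-numbered libraries of E5.5 and E6.5 had correlations of -0.458 to -0.24. With the replicate block 104 genes were called higher and 146 lower, and 242 of the 252 calls were shared.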

Other observations

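Genes on the X and Y chromosomes were left out of the comparison above and were fitted together with the autosomes after the data were seen. Of 470 X-linked genes tested, 7 were called higher and 4 lower at E6.5, with a median log2 fold change of -0.02. Over all 12764 genes of that fit, 114 were called higher and 151 lower. Apln, the apelin ligand, had 5.66, 5.56 and 6.01 TPM at E5.5 and 20.6, 18.2 and 16.7 TPM at E6.5 (1.53 ± 0.16, adjusted p = 9.59e-05), next to the rise of its receptor Aplnr. Cited1, a visceral endoderm marker, had 28.0, 28.8 and 29.5 TPM and then 63.3, 58.2 and 60.9 TPM (1.05 ± 0.09, adjusted p = 2.65e-05).

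Tsix, the antisense partner of Xist, had 8.89, 11.0 and 5.86 TPM at E5.5 and 2.83, 3.65 and 3.00 TPM at E6.5 (-1.17 ± 0.19, adjusted p = 0.00248). Xist had 46.6, 50.2 and 48.3 TPM and then 47.0, 56.6 and 44.2 TPM (0.02 ± 0.09, adjusted p = 0.912). Of 8 Y-linked genes tested, 1 was called lower, Kdm5d, with 5.01, 5.86 and 6.70 TPM and then 1.96, 2.36 and 1.96 TPM (-1.14 ± 0.19, adjusted p = 0.00246). Ddx3y had 11.3, 13.6 and 13.4 TPM and then 6.39, 8.07 and 6.81 TPM (-0.77 ± 0.12, adjusted p = 0.00126), below the fold threshold, and the median of the 8 was -0.50. The pools held embryos of either sex in proportions that are not stated, so the sex make-up of the pools and the stage cannot be told apart for these genes.

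Lars2, a mitochondrial tRNA synthetase, was called higher with libraries that overlapped: 161, 44.8 and 45.4 TPM at E5.5 and 122, 1063 and 1491 TPM at E6.5. E5.5 replicate 1 was the highest and E6.5 replicate 1 the lowest of its stage, as for the short RNAs. The ribosomal 5S copy n-R5s193 was listed at 0 in all E5.5 libraries and at 184, 634 and 798 TPM at E6.5, and the snoRNA Snord12 had 0.707, 0.014 and 0.0208 TPM and then 3.59, 22.9 and 24.8 TPM.

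Annotated classes of genes with no protein product moved by different amounts. Over all 1959 such genes, 1.58% were called higher and 4.8% lower. Replicate 1 of each stage stood apart for most of those called higher, and its part in the class medians below was not tested. The 93 genes of the GENCODE class TEC, whose transcripts await an experimental test, had a median log2 fold change of -0.86, with 23 called lower and none higher, and the 21 sense intronic transcripts one of -0.91, with 5 called lower. The 43 rRNA genes had a median of 1.67, with 2 called higher and 1 lower, and the 128 miRNAs one of -0.51, with 2 called higher and 13 lower. The 118 lincRNAs had a median of -0.47, and the 966 processed pseudogenes one of 0.24.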
